A study of Mus musculus with 6 samples.

Results

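Hypoxia-responsive genes outside glycolysis were examined in mouse lung group 2 innate lymphoid cells (ILC2s), lymphocytes of tissues that make type 2 cytokines without antigen receptors. The group holds 10 named genes: Egln1, Egln3, Vhl, Bnip3, Bnip3l, Higd1a, Ddit4, Ndrg1, P4ha1 and Ankrd37. They were chosen with earlier results of these data known. All 10 have a row among the 21017 genes of the deposited count table, and all 10 are among the 16654 genes that passed the filter on low counts. Per the labels, all cells came from the lungs of C57BL/6J mice aged 8 weeks with the genotype IL-10GFP, a green fluorescent reporter of Il10. Mice of both groups had received 3 intranasal administrations of IL-33 (0.5 µg each), a cytokine that activates ILC2s. The sorted ILC2s were then cultured with the cytokines IL-2, IL-7 and IL-4 (10 ng/mL each, 48 h) and sorted again by IL-10 production. The study compared 3 libraries of IL-10-producing with 3 of IL-10-negative ILC2s. Whether separate mice or separate cultures gave the 3 libraries of a group is not stated, so the p-values rest on a spread between libraries that may be technical. The sources used here do not state the oxygen level of the culture.

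In the response to low oxygen, the transcription factor HIF pairs an oxygen-labile alpha subunit with a stable partner. When oxygen is present, prolyl hydroxylases of the EGLN family mark the alpha subunit, and the ubiquitin ligase that contains the VHL protein sends it to the proteasome. When oxygen is scarce, HIF accumulates and raises genes that supply energy by glycolysis, remove mitochondria, slow growth and feed back on HIF itself. HIF is controlled mainly as a protein, and several of its target genes also respond to cytokines and other stresses.

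Genes of this group were higher in IL-10-producing cells or did not pass the test, and none was lower. Egln3, a HIF prolyl hydroxylase, was 1.96-fold higher, Ndrg1 1.65-fold, Bnip3 1.5-fold and Ankrd37 1.38-fold. Bnip3l, Higd1a and P4ha1 were higher by 1.06-fold to 1.11-fold, and Egln1, Vhl and Ddit4 did not pass. In all, 7 of 10 were higher at an adjusted p under 0.05 and 0 lower. Of all tested genes, 17.1% were higher by the same rule and 18.6% lower (35.7% either way). The median log2 fold change of the 10 genes was 0.15, against -0.004 over all tested genes. Every fold change divides the level in IL-10-producing cells by that in IL-10-negative cells, and adjusted p-values come from edgeR's quasi-likelihood test with Benjamini-Hochberg adjustment over all 16654 genes. Against a minimum change of 1.2-fold, 3 of the 10 genes were higher (Egln3, Ndrg1 and Bnip3), compared with 2.44% of all tested genes (7.91% in either direction). In the same 7 genes every IL-10-producing library lay above every IL-10-negative library, which held for 21.7% of all tested genes, and 45.2% had no overlap in either direction. Because the genes were chosen with earlier results of these data known, these counts and shares only describe the 10 genes. They are no test of the group.

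**Figure D1:**
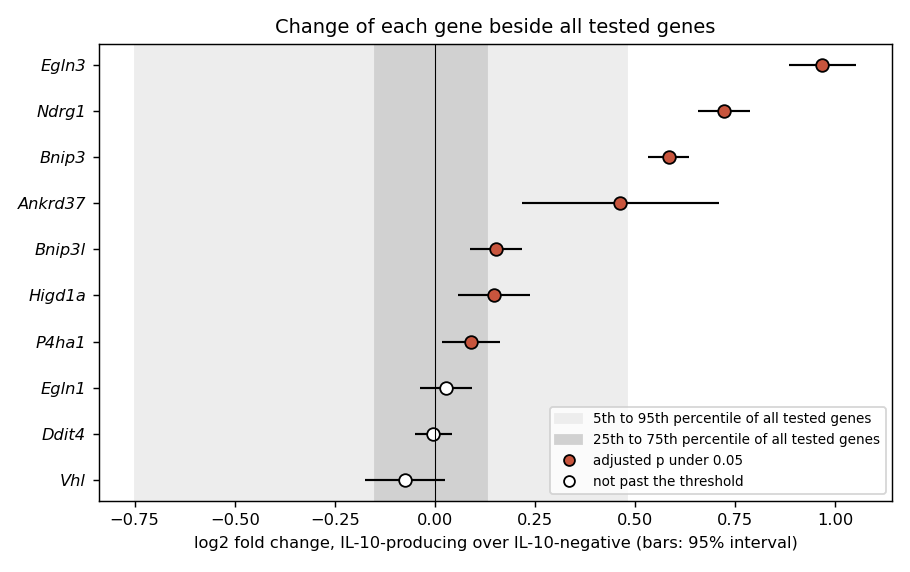
Log2 fold change (horizontal axis) of each of the 10 genes with its 95% interval, filled where the adjusted p was under 0.05. The grey bands give the spread of all 16654 tested genes: Egln3 (0.97), Ndrg1 (0.72) and Bnip3 (0.58) lie beyond the 95th percentile of 0.48, and the interval of Ankrd37 crosses it.

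Libraries held 47012941 to 69511433 estimated counts. Levels are given as CPM, counts per 1 M counts of the library after TMM scaling. Il10, whose reporter was used for the sort, was at 848 ± 7.78 CPM in the libraries of producing cells and 13.5 ± 0.608 CPM in those of negative cells (SD, n = 3), which is the direction of the labels. All 16 ILC2 markers examined were at 5 CPM or more in the IL-10-producing libraries, where 5 of them were higher and 9 lower than in IL-10-negative cells (median log2 fold change -0.21). Markers of other cells were lower there. Of 14 T cell markers 13 were lower and 1 higher (median log2 fold change -2.69). Their summed levels were 116 to 119 against 193 to 199 CPM. In IL-10-producing libraries 3 of them reached a mean of 5 CPM: Trbc2 (48.2 against 58.4 CPM), Lef1 (41.5 against 33.1) and Trbc1 (18.8 against 21.2). Cd8a stood at 0.0594 against 15.3 CPM, Tcf7 at 0.262 against 14.5 and Cd3e at 1.25 against 8.19. In the IL-10-producing libraries Cd8b1 was at 0 in replicate 2, and no T cell marker was at 0 in all 3. Of 12 tested markers of mast cells, basophils and neutrophils all 12 were lower, with sums of 13.1 to 15.3 against 104 to 109 CPM. Lower calls also outnumbered higher ones for B cells (5 and 0 of 6 tested), macrophages and dendritic cells (4 and 1 of 8) and NK cells and ILC1 (3 and 1 of 4, with Ncr1 at 0 in the IL-10-producing libraries), while epithelium and stroma had 1 each of 3. Markers of other cells were thus mostly lower. Of the genes named below, some rose and others fell, such as Arnt2, Nt5e, Calcoco1, P4ha2 and Stc2. Which cells gave these transcripts was not measured. The part of other cells in these results was not tested. In such bulk libraries, fewer cells with a transcript and less of it per cell cannot be told apart.

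The promoters of the genes that rose most, and of Ddit4 as a gene that did not pass, are shown here because HIF binds short elements with the core letters ACGTG, of which a second form starts with another base and is written GCGTG. RefSeq promoter windows on GRCm38.p6 matched 8 of the 10 genes, all but Bnip3l and Ndrg1. The 250 bases before each RefSeq start site were searched on both strands. Each stretch below runs 5′ to 3′ on the gene's strand and ends where GENCODE M21 annotates an exon or at the start site. Capitals mark either core on either strand. All 4 genes lie on the minus strand, at chr12:54203875-54204124 for Egln3, chr7:138909520-138909756 for Bnip3, chr8:45999868-46000100 for Ankrd37 and chr10:59951835-59952020 for Ddit4.
Egln3: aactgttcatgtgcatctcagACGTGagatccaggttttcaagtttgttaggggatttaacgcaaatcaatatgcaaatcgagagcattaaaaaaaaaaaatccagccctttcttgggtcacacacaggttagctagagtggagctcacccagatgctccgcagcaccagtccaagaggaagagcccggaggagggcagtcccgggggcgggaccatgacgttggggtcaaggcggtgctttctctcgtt
Bnip3: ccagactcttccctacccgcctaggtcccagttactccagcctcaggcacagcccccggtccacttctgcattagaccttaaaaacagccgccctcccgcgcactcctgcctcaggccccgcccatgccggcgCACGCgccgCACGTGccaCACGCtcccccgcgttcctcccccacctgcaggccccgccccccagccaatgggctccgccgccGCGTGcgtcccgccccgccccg
Ankrd37: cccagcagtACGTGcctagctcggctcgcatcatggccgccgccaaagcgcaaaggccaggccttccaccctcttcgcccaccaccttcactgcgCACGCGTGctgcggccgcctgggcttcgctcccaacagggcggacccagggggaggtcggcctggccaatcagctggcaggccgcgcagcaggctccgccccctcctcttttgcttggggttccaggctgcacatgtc
Ddit4: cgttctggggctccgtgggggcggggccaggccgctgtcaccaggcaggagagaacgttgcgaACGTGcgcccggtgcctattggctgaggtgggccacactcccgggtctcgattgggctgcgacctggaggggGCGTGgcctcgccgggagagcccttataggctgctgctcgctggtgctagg

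Either core occurred in 7 of the 8 windows, in all but that of Vhl, and 38.6% of all 32851 promoter windows of the same length held them. Matches that overlap were counted as 1 run, and 5 of the 8 windows held at least 2 separate runs, against 13.5% of all windows. The Egln3 window held 1 run, with its first base 229 bases before the start site. The Bnip3 window held 4, of which the run at 108 bases is the palindrome CACGTG, the letters of the E-box that other factors also bind (6.02% of all windows). Ankrd37 held 3, of which the run 6 bases before the start lies in an annotated exon and is not printed. Ddit4 held 2 and Egln1 2, so matches occurred in genes that rose and in genes that did not pass the test. The Egln3 window held 50.8% G and C, just below the median of 52.4% over all windows. The other windows of these genes were richer, from 62.0% for Vhl to 86.0% for Egln1. A match of 5 letters is a description and not a binding site.

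The oxygen-sensing enzymes moved unequally. Egln3 (ENSMUSG00000035105.5, chromosome 12, 54178981 to 54203860) encodes a HIF prolyl hydroxylase that HIF itself induces. It stood at 52.2, 54.1 and 55.8 CPM in the IL-10-producing and 28, 26.5 and 28.3 CPM in the IL-10-negative libraries. The groups were far apart relative to their spread: the lowest IL-10-producing library lay well above the highest IL-10-negative one. Means were 54.0 ± 1.80 against 27.6 ± 0.983 CPM (SD, n = 3), a log2 fold change of 0.97 (SE 0.041, 95% interval 0.88 to 1.05, adjusted p = 9.42e-16). Of all tested genes, 168 (1.01%) had a higher log2 fold change.

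Egln1 (ENSMUSG00000031987.6, chromosome 8, 124908587 to 124949324), the hydroxylase that sets HIF levels in most tissues, did not show this difference. Its libraries stood at 112, 108 and 116 CPM in the producing cells, against 107, 107 and 115 CPM in the negative cells. The ranges overlapped, and the interval of the fold change ran from 0.974 to 1.07 (1.02-fold, adjusted p = 0.555). Egln2, the third hydroxylase of the family and not a member of the group, fell from 59.4 ± 0.692 to 54.3 ± 1.62 CPM (-0.13 on the log2 scale, adjusted p = 0.004). Per kilobase of the longest annotated transcript, the levels in IL-10-negative cells were 30.5 CPM per kb for Egln1, 28.2 for Egln2 and 10.4 for Egln3. In IL-10-producing cells they were 31.2, 25.8 and 20.3 CPM per kb. Egln3 thus made up 26.3 ± 0.85% of the summed EGLN transcripts per length in IL-10-producing and 15 ± 0.362% in IL-10-negative libraries (SD, n = 3). The shares did not overlap, so the two-sided exact permutation test had to give p = 0.1, the smallest that 3 against 3 libraries allow.

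Vhl (ENSMUSG00000033933.13, chromosome 6, 113623959 to 113631633), which encodes the subunit that recognizes hydroxylated HIF, did not pass. It stood at 23.9, 24.5 and 24.0 CPM against 25.7, 26.4 and 24.1 CPM. The third IL-10-negative library lay within the range of the IL-10-producing libraries. The fold change was 0.95 with an interval of 0.886 to 1.02 (adjusted p = 0.253).

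**Figure D2:**
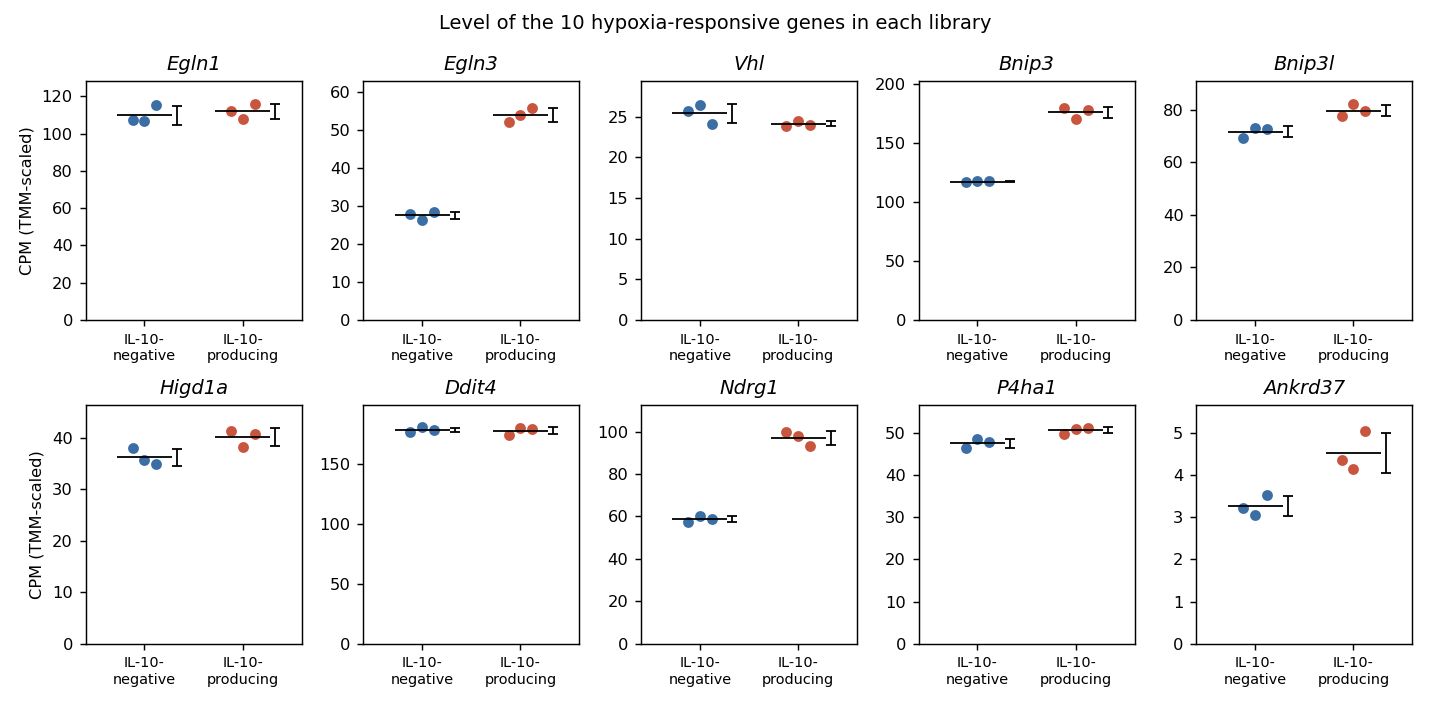
CPM scaled with TMM factors (vertical axes, from 0) of each gene in the 3 IL-10-negative (blue) and 3 IL-10-producing (red) libraries, with the mean as a line and the SD as a bar. The groups are apart for 7 genes, with the largest ratio of means for Egln3 (1.96-fold), and overlap for Egln1, Vhl and Ddit4.

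The mitochondrial genes all rose, Bnip3 by most. Bnip3 (ENSMUSG00000078566.8, chromosome 7, 138890836 to 138909519) encodes a protein of the outer mitochondrial membrane that marks mitochondria for removal by autophagy. It stood at 180, 170 and 178 CPM in the producing cells, against 117, 118 and 118 CPM in the negative cells. The IL-10-negative libraries were nearly identical, and every IL-10-producing library lay well above them. Means were 176 ± 4.99 and 117 ± 0.674 CPM (SD, n = 3; log2 fold change 0.58, SE 0.0247, adjusted p = 9.48e-16), and 3.56% of tested genes had a higher fold change.

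Bnip3l (ENSMUSG00000022051.15, chromosome 14, 66985239 to 67008877), its paralog with the same role, differed much less. Its levels were 77.6, 82.0 and 79.3 CPM against 69.2, 73.1 and 72.6 CPM. The groups did not overlap, but the gap between them was about as wide as the spread within each group (1.11-fold, interval 1.06 to 1.16, adjusted p = 0.000348). Within each library Bnip3 was the more abundant of the pair per length, 3.86 to 4.29 times in IL-10-producing and 3.00 to 3.13 times in IL-10-negative cells. These ratios did not overlap. The Bnip3 share of the pair was 80.4 ± 0.879% against 75.3 ± 0.448% (SD, n = 3). These shares did not overlap either, so the exact permutation test had to give p = 0.1, the smallest possible.

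Higd1a (ENSMUSG00000038412.8, chromosome 9, 121848563 to 121858362) encodes a small protein of the inner mitochondrial membrane that is associated with the respiratory chain. It stood at 41.4, 38.1 and 40.8 CPM against 37.9, 35.8 and 34.9 CPM. The lowest IL-10-producing library lay just above the highest IL-10-negative one. The change was 1.11-fold (interval 1.04 to 1.18, adjusted p = 0.00952), and it did not pass without IL-10-producing replicate 1 (adjusted p = 0.0558) or without IL-10-negative replicate 3 (0.0605). Higd2a, a related gene that is no member, stood at 28.9 ± 0.661 against 29.7 ± 0.648 CPM and did not pass (adjusted p = 0.544).

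Genes of growth restraint and stress went separate ways. Ddit4 (ENSMUSG00000020108.4, chromosome 10, 59949669 to 59951834) encodes an inhibitor of the growth kinase complex mTORC1 that acts through the TSC proteins. Per length it was the most abundant of the 10 genes in IL-10-negative cells, and in IL-10-producing cells its range overlapped that of Bnip3. It stood at 174, 180 and 179 CPM against 177, 181 and 178 CPM. The ranges overlapped. The fold change was 0.997 with an interval of 0.965 to 1.03 (adjusted p = 0.902). Its paralog Ddit4l was at 1.69 ± 0.247 against 1.83 ± 0.245 CPM and did not pass either (adjusted p = 0.715).

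Ndrg1 (ENSMUSG00000005125.13, chromosome 15, 66929318 to 66969640) encodes a stress-responsive cytoplasmic protein. It stood at 99.7, 97.8 and 93.3 CPM in the producing cells, against 57.3, 60.2 and 58.8 CPM in the negative cells. The groups were widely separated, with means of 96.9 ± 3.31 and 58.8 ± 1.44 CPM (SD, n = 3; log2 fold change 0.72, SE 0.0315, adjusted p = 1.8e-15). In 2.23% of tested genes the log2 fold change was higher. Of 8 tested paralogs of the 10 genes 1 rose (P4ha3, 12.5%) and 2 fell (Egln2 and P4ha2, 25%), beside 17.1% and 18.6% of all tested genes. Under some alternative analyses, such as scaling by library size only, 3 fell. No paralog of Ndrg1 passed in the main test: Ndrg3 stood at 43.1 ± 2.59 against 46.4 ± 1.28 CPM (adjusted p = 0.0518), Ndrg4 at 6.94 ± 0.839 against 6.56 ± 0.33 CPM (0.518) and Ndrg2 at 1.14 ± 0.113 against 1.46 ± 0.297 CPM (0.217).

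P4ha1 (ENSMUSG00000019916.14, chromosome 10, 59323296 to 59373304), the main catalytic subunit of collagen prolyl hydroxylase, lies 576.4 kb from Ddit4 on the same chromosome. It stood at 49.9, 50.9 and 51.1 CPM against 46.4, 48.5 and 47.8 CPM. The groups did not overlap but were close, and the change was small (1.06-fold, interval 1.01 to 1.12). Its adjusted p of 0.0499 lay at the threshold, and the call was lost under 10 of 16 alternative analyses. These included scaling by library size only, without TMM factors (adjusted p = 0.207), and the removal of each library except IL-10-negative replicate 2 (0.0573 to 0.182).

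The paralogs of P4ha1 moved in opposite directions. P4ha3 rose from 4.01 ± 0.146 to 7.27 ± 0.386 CPM (log2 fold change 0.86, adjusted p = 6.49e-08) and P4ha2 fell from 10.0 ± 0.279 to 6.80 ± 0.31 CPM (-0.56, adjusted p = 1.85e-06). P4ha1 remained the most abundant of the family per length, at 69.9% to 71.3% of its sum in IL-10-producing and 69.9% to 70.6% in IL-10-negative libraries. Among 10 genes of collagen hydroxylation and its partners, P4ha2 and P4ha3 included, 3 rose (30%) and 2 fell (20%), beside 17.1% and 18.6% of all tested genes. Apart from P4ha2, Crtap fell (49.3 ± 2.26 against 52.8 ± 2.11 CPM), with overlapping groups. Its adjusted p of 0.0475 lay near the threshold, and the call was lost under several alternative analyses. The others that rose were Plod3, a lysyl hydroxylase (53.4 ± 1.67 against 47.2 ± 1.68 CPM), and P4hb, the partner subunit of P4ha1 (708 ± 7.29 against 677 ± 6.89 CPM, lost when scaled by library size only, at adjusted p = 0.126).

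Ankrd37 (ENSMUSG00000050914.16, chromosome 8, 45996902 to 46005707), an ankyrin repeat gene known as a HIF target, was the least abundant member. It stood at 4.35, 4.14 and 5.05 CPM against 3.21, 3.05 and 3.52 CPM. All IL-10-producing libraries lay above all IL-10-negative libraries, although the third library of each group was the highest of its group. The change was 1.38-fold with a wide interval of 1.16 to 1.63 (adjusted p = 0.00306), from 754 and 543 counts summed over 3 libraries. Its value is uncertain because 57 of its 1539 exonic bases overlap Ufsp2 and 349 overlap Lrp2bp on the opposite strand. Over the 6 libraries Ufsp2 had 9518 counts and Lrp2bp 108.3. The sources used here do not state whether reads were counted by strand. Annotated antisense genes also overlap 504 of 2265 exonic bases of Bnip3, 419 of 6596 of Ndrg1 and 683 of 3040 of Higd1a. The same question of strand applies there, and these antisense genes were not analysed here.

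Ordered by level per kilobase of the longest transcript, the IL-10-negative cells had Ddit4 first (102 CPM per kb), then Bnip3 (66.9), Egln1 (30.5), Bnip3l (22), Higd1a (16.2), Ndrg1 (14.5), P4ha1 (11.8), Egln3 (10.4), Vhl (9.10) and Ankrd37 (3.52). No neighbours in this order overlapped in their library ranges. In IL-10-producing cells Bnip3 (100 CPM per kb) drew level with Ddit4 (101), and their ranges overlapped. Ndrg1 moved from the sixth to the fifth place, where its range overlapped that of Bnip3l, and Egln3 moved from the eighth to the sixth, above Higd1a and P4ha1. These levels depend on which transcript is taken as the length.

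**Figure D3:**
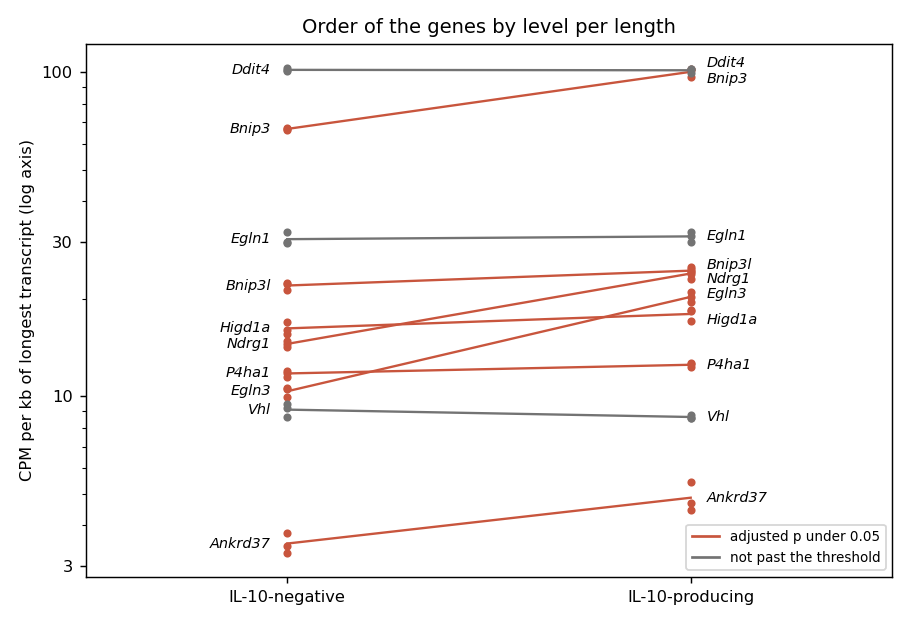
CPM per kb of the longest GENCODE M21 transcript (vertical log axis) for each gene in IL-10-negative and IL-10-producing cells, with points for libraries and lines between group means. Egln3 and Ndrg1 climb past Higd1a, and Bnip3 reaches the level of Ddit4, while Egln1, Ddit4 and Vhl stay nearly flat.

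Among the HIF subunits, their partners and the oxygen-sensing machinery, 4 of 16 genes rose and 4 fell (median log2 fold change 0.01). Each share was 25%, beside 17.1% higher and 18.6% lower over all tested genes. Epas1, which encodes the alpha subunit of HIF-2, stood at 1049, 1065 and 1032 CPM against 760, 763 and 768 CPM. The groups lay far apart (log2 fold change 0.46, SE 0.0171, adjusted p = 7.83e-17). Hif1a, which encodes the alpha subunit of HIF-1, differed much less, at 646, 649 and 659 CPM against 605, 610 and 606 CPM (0.10, adjusted p = 4.66e-05). Epas1 was 57.9 ± 0.612% of the summed alpha subunit transcripts per length in IL-10-producing and 51.8 ± 0.144% in IL-10-negative libraries (SD, n = 3). As these shares did not overlap, the exact permutation test had to give p = 0.1, the smallest possible. These are transcript levels, and HIF protein was not measured.

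Cited2, which encodes a protein that competes with HIF for its co-activators and is itself induced by HIF, rose from 193 ± 3.30 to 264 ± 5.84 CPM (0.45, adjusted p = 1.97e-14). Eloc, a subunit of the VHL ligase, was 0.10 higher on the log2 scale (adjusted p = 0.0287), a call lost under 7 of 16 alternative analyses. These were scaling by library size only (0.135), a correction for GC content and length (0.441), the test against 1.2-fold, and the removal of IL-10-producing replicate 3 (0.146) or of IL-10-negative replicate 1 (0.0802), 2 (0.0529) or 3 (0.0601). The genes that fell were Arnt2, an alternative partner of the alpha subunits (3.34 ± 0.246 against 7.46 ± 0.116 CPM), Egln2, the co-activator gene Crebbp (112 ± 2.04 against 125 ± 1.47 CPM) and Siah1a, a ubiquitin ligase gene (7 ± 0.465 against 8.86 ± 0.45 CPM). The main partner gene Arnt (57.1 ± 0.339 against 60.0 ± 1.43 CPM, adjusted p = 0.0986) did not pass. Nor did Hif1an, an asparaginyl hydroxylase of HIF (72.6 ± 3.45 against 72.3 ± 0.525 CPM), Cul2, Rbx1 and Elob of the VHL ligase, the co-activator gene Ep300, Siah2 or Hif3a. Adjusted p-values of these 7 genes ran from 0.0815 for Rbx1 to 0.901 for Ep300.

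Among other genes known to respond to hypoxia outside glycolysis, more fell than rose. Of 31 tested, 7 rose (22.6%) and 12 fell (38.7%), with a median log2 fold change of -0.06. Over all tested genes the shares were 17.1% and 18.6%. Stc2, a secreted glycoprotein gene, fell from 74.7 ± 2.22 to 44.2 ± 2.46 CPM (-0.75, adjusted p = 3.21e-14). Bhlhe40, a transcriptional repressor, fell from 97.2 ± 1.59 to 73.1 ± 2.58 CPM and Nt5e, the ecto-enzyme that makes adenosine, from 14.5 ± 0.22 to 7.96 ± 0.533 CPM. Tfrc, the transferrin receptor, rose from 294 ± 6.60 to 369 ± 5.99 CPM (0.33, adjusted p = 3.2e-12). Of genes known to respond to hypoxia within glycolysis, 16 of 21 rose (76.2%) and 1 fell, with a median of 0.25. Slc16a3, the lactate exporter, reached 0.49 on the log2 scale, which is below the values of Egln3, Ndrg1 and Bnip3. Tpi1 (0.39), Ldha (0.32) and Pgk1 (0.30) of the same list also rose.

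**Figure D4:**
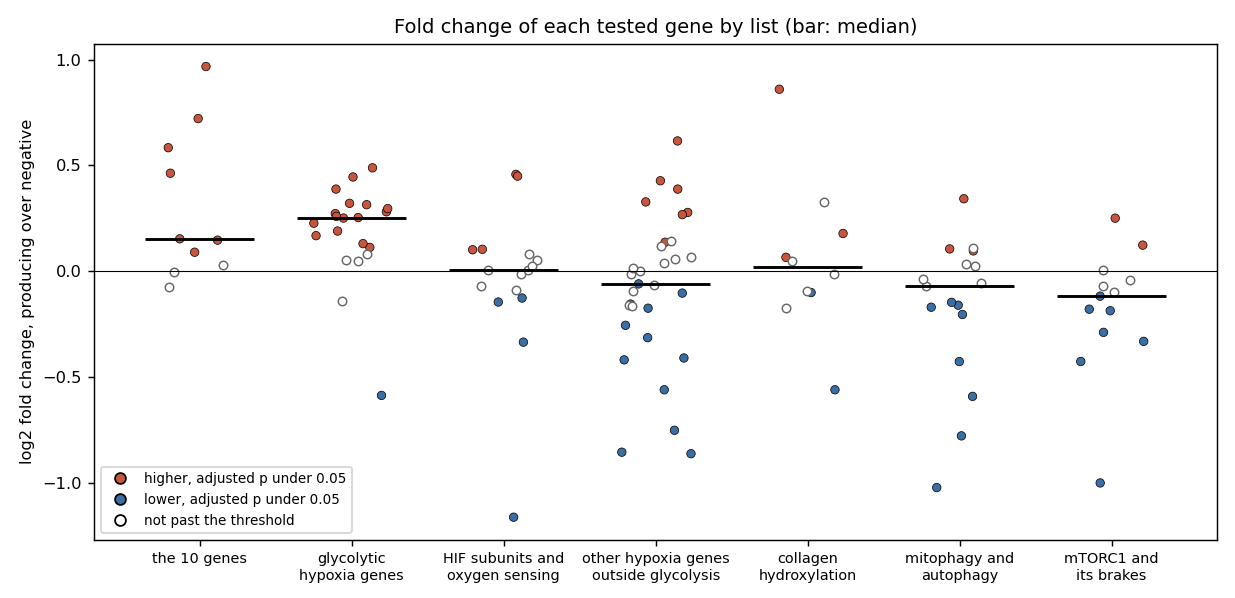
Log2 fold change (vertical axis) of every tested gene of the group and of 6 lists of related genes, filled red or blue where the adjusted p was under 0.05, with the median as a bar. The 10 genes (median 0.15) and the glycolytic genes (0.25) lie mostly above 0, whereas the other lists hold genes on both sides with medians from -0.12 to 0.02.

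Genes that act beside Bnip3 and Bnip3l in the removal of mitochondria were more often lower than higher, with 3 of 17 higher and 8 lower (median -0.07). These were 17.6% and 47.1%, beside 17.1% and 18.6% of all tested genes. Sqstm1, the autophagy adaptor, fell from 377 ± 4.33 to 219 ± 4.52 CPM (-0.78, adjusted p = 8.78e-20). Pink1, the kinase that starts the route to mitophagy that does not use these receptors, fell from 77.5 ± 0.239 to 51.4 ± 0.371 CPM (-0.59, adjusted p = 4.56e-14), and Calcoco1, an adaptor, from 13.6 ± 0.797 to 6.70 ± 0.125 CPM. Tax1bp1, another adaptor, rose from 308 ± 4.08 to 390 ± 6.85 CPM (0.34). Fundc1, which encodes another receptor of mitophagy, did not pass (19.1 ± 0.402 against 18.8 ± 0.777 CPM, adjusted p = 0.768).

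Around Ddit4, genes of mTORC1 and its negative regulators were mostly lower where they passed, with 2 of 13 higher and 7 lower (median -0.12). These were 15.4% and 53.8%, beside 17.1% and 18.6% of all tested genes. Sesn3 and Sesn2, stress-induced inhibitors of mTORC1, both fell. Sesn3 stood at 94.6 ± 2.31 against 127 ± 1.99 CPM and Sesn2 at 91.6 ± 1.41 against 104 ± 4.02 CPM. Txnip, a stress gene that limits glucose uptake, fell from 252 ± 4.41 to 200.1 ± 3.51 CPM (-0.33, adjusted p = 4.68e-12). Gatsl2, also called Castor2, rose from 40.4 ± 0.68 to 47.9 ± 3.03 CPM. Mtor itself did not pass (75.7 ± 1.78 against 75.5 ± 1.28 CPM, adjusted p = 0.91).

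For Egln3 and Bnip3, the 2 members with the smallest p, the genes with the most similar pattern over the 6 libraries were listed by Pearson's r of log2 CPM, as a description, among 10129 other genes at 5 CPM or more in every library. For Egln3 these were Lmnb1 (r = 0.9994), Stmn1 (0.9991) and Tec (0.9991), and for Bnip3 they were Nid1 (0.9998), Rnf26 (0.9997) and S100a6 (0.9993). With 2 groups of 3 libraries these values mostly carry the difference between the groups: 1102 genes had an r above 0.95 with Egln3 and 1128 with Bnip3.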

How the data were processed

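RNA of 6 libraries was sequenced after sorting. The submitters' processing notes name Partek, the aligner STAR (2.5.3a), bcl2fastq (2.17.1.14) and the build mm10; the annotation release and strand setting were not given in the sources used here. The authors deposited estimated counts per gene, not scaled between libraries (50.4% of values not whole), and, for 13824 genes, normalized signal values that equal the count plus 1 times a factor per library (within 1%).

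The estimated counts were rounded and tested with edgeR 4.0.16 (R 4.3.3), quasi-likelihood F test, TMM factors, group as the only term, filterByExpr defaults (minimum count 10, minimum total 15), and a Benjamini-Hochberg threshold of 0.05. CPM are scaled with TMM factors. Library totals ran from 47012941 to 69511433; the number of libraries limits precision. Library pairs within a group differed by 2.39 to 2.96 times Poisson noise, so none was a copy. The fit was tested on simulated data. Transcript lengths and GC came from GENCODE M21, in which 19917 of 21017 identifiers matched, all at the same position once 1 was subtracted from the listed stop. Promoters came from RefSeq on GRCm38.p6.

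The members and lists were chosen with earlier results of these data known. Named genes were all members, the HIF machinery list, Il10 and the genes most similar to 2 members. From each other list they were the 4 genes of smallest p at 5 CPM or more. Paralogs, Crtap, Fundc1, Mtor, Cd3e, Cd8a, Cd8b1, Tcf7, Trbc1, Trbc2, Lef1 and Ncr1 were added after their values were seen. Alternatives were DESeq2 1.42.0 and its size factors, library size only, no filter, at least 50 counts in 3 libraries, limma 3.58.1 (voom, and a fit to log2 of normalized values with pseudocount 1), a block for replicate number, a test against 1.2-fold, a GC and length correction, and leaving out each library.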

Additional observations from a re-analysis of the deposited data

How the results depend on the processing

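Each result was recomputed under 16 alternatives. Egln3, Ndrg1 and Bnip3 passed under all 16, with log2 fold changes of 0.94 to 1.00, 0.69 to 0.76 and 0.54 to 0.61. Ankrd37 and Bnip3l passed under all but the test against 1.2-fold. The count of members that changed was 5 to 7 without single libraries, lowest without IL-10-producing replicate 1 or IL-10-negative replicate 3, and 3 against 1.2-fold, where genes changed fell from 5943 to 1317 (407 higher, 910 lower). In that test higher and lower counts were 2 and 1 for HIF machinery, 4 and 5 for other hypoxia genes, 4 and 0 for glycolysis, 1 and 3 for mitophagy, 0 and 3 for mTORC1, and 1 and 1 for paralogs and for collagen hydroxylation. The single lower glycolytic gene was lost without IL-10-negative replicate 3 (0), and the lower count of collagen hydroxylation was 1 instead of 2 under 8 other alternatives. With library size only, 36.8% of changed genes were higher, against 47.8%, and 6 members rose.

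Signs turned for genes near 0. With library size only the log2 fold change was -0.0034 for Egln1, -0.023 for Hif1an, -0.0261 for Ep300 and -0.008 for Siah2. Ddit4 was at 0.0101 once GC content and length were corrected for. Without single libraries Ddit4 ran from -0.0118 to 0.0123, Hif1an from -0.0304 to 0.0401, Elob from -0.0511 to 0.0379 and Ep300 from -0.0024 to 0.0169. None of these passed under those settings; Ep300 passed as higher once corrected for GC content and length (0.0517, adjusted p = 0.0298), Arnt (-0.10) and Rbx1 (-0.12) passed as lower with library size only, and Rbx1 also once corrected for GC content and length (-0.10, adjusted p = 0.0366). The cause was not tested.

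Libraries with the same replicate number in both groups did not deviate together: their deviations correlated at -0.048, -0.023 and -0.03. These values cannot tell whether same-numbered libraries came from the same mouse or culture. With the replicate block 5817 genes changed and 6 members rose, without P4ha1.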

Other observations

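Several genes often used as readouts of hypoxia were too low for a test in these cells. Adm averaged 0.0993 CPM in the producing cells against 0.11 CPM in the negative cells, and Bhlhe41, Cox4i2 and Ndufa4l2 also failed the filter on low counts. Car9, a carbonic anhydrase gene, was tested at 1.42 ± 0.28 against 1.57 ± 0.222 CPM and did not pass (adjusted p = 0.582). Vegfa, the angiogenic factor, fell from 12.1 ± 0.559 to 10.1 ± 0.577 CPM (log2 fold change -0.26, adjusted p = 0.00537). Hilpda, a lipid droplet gene, and Ak4, a mitochondrial adenylate kinase gene, both rose. Hilpda stood at 58.8 ± 1.26 against 43.7 ± 0.901 CPM and Ak4 at 11.8 ± 0.642 against 7.66 ± 0.817 CPM. These genes were chosen after their values were seen. Lox, Ppp1r3c and Nos2 were not analysed here.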
